A study of Mus musculus with 29 samples.

Results

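The 5S rRNA genes code for the small RNA of the large ribosomal subunit that RNA polymerase III (Pol III) transcribes, and in the mouse most of them stand in tandem on chromosome 8. They were taken as every row of the deposited table of Pol III loci whose gene name starts with Rn5S or Rn5S_like, which gave 51 rows, beside 595 rows of other Pol III loci. Of these, 42 were named Rn5S and 9 Rn5S_like, 50 lay on chromosome 8 and 1 lay on chromosome 6. The measurement is chromatin immunoprecipitation followed by sequencing (ChIP-seq) of RPC4, a subunit of Pol III, in the liver of C57BL/6 male mice of 12 to 14 weeks. The livers were taken at 0 h (TP0) and at 36, 48 and 60 h (TP36, TP48 and TP60) after partial hepatectomy, the removal of most of the liver, after which the remaining cells re-enter the cell cycle. All mice were kept on a 12 h light and 12 h dark regimen with food at night, and the labels give no allele or drug for any group. Each time point had 2 RPC4 libraries, replicates 1 and 2, each from a pool of the livers of 3 mice, and the 8 RPC4 libraries of the 29 samples of the series are used here. The libraries come from whole liver, so that more cells with Pol III on a gene and more Pol III per cell cannot be told apart.

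A 5S gene carries its promoter inside the transcribed part. Transcription factor IIIA binds this internal control region, made of an A box, an intermediate element and a C box, then TFIIIC and TFIIIB join it and Pol III is recruited, and a run of T after the gene ends transcription. The RNA is bound by the ribosomal proteins RPL5 and RPL11 and enters the ribosome in equal numbers with the other rRNAs, which RNA polymerase I makes. Growing cells are known to need more of all of them.

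Scores are log2 ratios of ChIP to input fragments, counted in the gene and 150 bp on each side of it with a pseudocount of 16. The study set a cutoff for each library, 0.81 to 0.87 for replicate 1 and 1.33 to 1.55 for replicate 2, above which a locus is called occupied below. Number of fragments and depth are unknown, so the difference between the libraries of a time point is the only error at hand. The limma test used below pools it over all time points and draws it toward that of all loci. An SE or q given below is thus not the spread of the compared libraries alone. Of all loci 492 (76.2%) were occupied in at least 1 library, and the median score of a library ranged from 1.36 at TP0 to 3.85 at TP60.

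The 50 array rows spanned 84.960 kb of chromosome 8 (NCBI37, mm9; chr8:126062686-126147645) with a median spacing of 1697 bp. One gap of 3399 bp held a further annotated gene, n-R5s109, which was not analysed here. The array lies in an intron of the annotated gene Gm20388 and in no protein-coding exon, 2264 bp beyond the end of Gas8 and 30184 bp before Rhou. The repeats are called here 1 to 50 in the order of their coordinates, with the GENCODE name where it is a gene symbol. The table gives the plus strand for all 50, while the genome sequence and GENCODE put all 50 genes on the minus strand. The score does not use the strand. Over the 119 bases of the gene, 32 repeats had the same sequence, and 18 differed from it in 9 further versions. A run of 5 T was found in all 50, searched from the last base of the gene to 30 bases beyond it.

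The scores differed with the gene sequence, so that the repeats are grouped by where they differ from the most common body. Genes were read on the minus strand of NCBI37, and positions are counted from 1 at the first base of the most common body. The internal control region was taken as positions 50 to 97 by the numbering known from Xenopus 5S genes (A box 50 to 64, intermediate element 67 to 72, C box 80 to 97).

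The 18 repeats that differed fall into 3 groups. In 8 repeats at least 1 base of the C box differed: repeats 2, 3, 14, 19, 27, 29 and 31 carried the same C box changes, repeat 27 together with the most changes elsewhere, and repeat 15 carried another C box change. Repeat 3 is n-R5s102 (chr8:126066078-126066196), repeat 27 n-R5s127 (chr8:126108435-126108553) and repeat 15 n-R5s115 (chr8:126088186-126088304). In 2 repeats, 37 and 50, 10 bases before the control region were deleted, with the control region left as it is. Repeat 50 is the last of the array (chr8:126147537-126147645). In 8 repeats another base differed: the same A box base in repeats 7, 18, 26 and 30, the same base before the control region in repeats 12, 20 and 25, and another base before it in repeat 36. Repeat 7 is n-R5s106 (chr8:126072856-126072974) and repeat 12 n-R5s112 (chr8:126083101-126083219). The comparison of repeats with and without the most common body came first, and the split into these groups was made after their scores were seen, so that it gets no test. Repeats also share fragments and are not replicates of each other.

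RPC4 scores were above the cutoff at 40 of the 51 loci before hepatectomy. These were the 32 repeats with the most common body and the 8 that differ outside the C box and the deletion. In the 32 a median of 100% of the score came from fragments that match the genome more than once. A score above the cutoff thus does not show that the given repeat is itself bound. Scores of the 32 had a median of 1.20 in replicate 1 and 1.95 in replicate 2 of TP0, with a range of 1.02 to 1.40 and 1.66 to 2.16. The 8 repeats that differ elsewhere overlapped them, at a median of 1.28 and 1.81.

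The repeats with C box differences had a TP0 median of 0.39 and 1.05, and none of the 8 passed the cutoff in either library. The 2 repeats with the deletion were at 0.27 and 0.55 in replicate 1 and at 0.35 and 0.97 in replicate 2. In both TP0 libraries the highest of these 10 repeats, at 0.76 and 1.19, lay below the lowest of the other 40, at 0.92 and 1.47. The 10 were put together after their scores were seen, so that this gap is a description only. The ranges did not overlap in TP36, in replicate 1 of TP48 or in replicate 1 of TP60 either, though at TP36 in replicate 1 the gap was 1.95 against 1.96. They overlapped in replicate 2 of TP48, where the highest of the 10 was at 2.08 and the lowest of the 40 at 1.96, and in replicate 2 of TP60, at 2.33 and 1.92.

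The difference between the medians of the most common body and of all 18 repeats that differ was 0.65 at TP0, and 0.86 against the 10 with C box differences or the deletion. Identity of the 150 bases before the gene with the most common version had a median of 99.3% in the most common body, 99.3% with C box differences and 100.0% with the deletion. After the gene the medians were 100.0%, 94.9% and 100.0%, and 89.2% in the 8 repeats that differ elsewhere. Whether the bases around the gene have a part in the scores was not tested. Repeats named Rn5S_like differ from Rn5S in the table by an interval of 3 more bases at the 3′ end. With the most common body, 7 Rn5S_like repeats had a TP0 median of 1.24 and 1.98, and 25 Rn5S repeats 1.19 and 1.92.

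**Figure D1:**
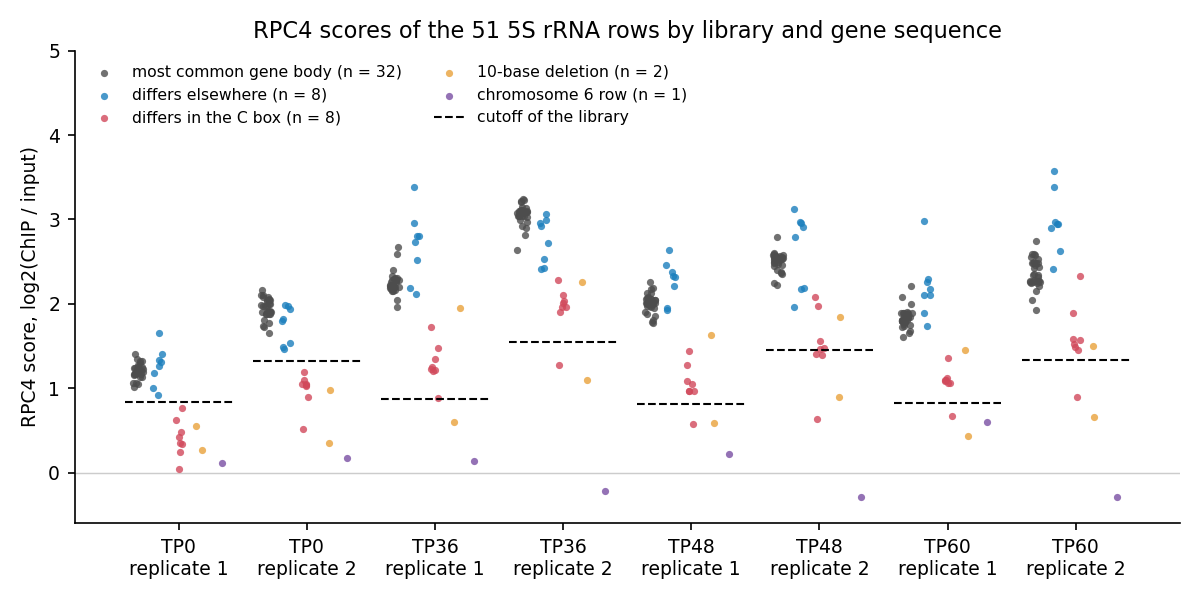
RPC4 scores (log2 of ChIP over input) of the 51 5S rRNA rows in each of the 8 libraries. Each point is a row, coloured by its gene sequence, and the dashed lines are the cutoffs of the libraries. At TP0 the 32 repeats with the most common body and the 8 that differ elsewhere lie above the cutoff, and the 8 with C box differences and the 2 with the deletion lie below it. The split of the repeats that differ was made after the scores were seen.

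The lowest repeats were the last of the array and repeat 27. Repeat 50 scored 0.27 and 0.35 at TP0, 0.60 and 1.10 at TP36, 0.59 and 0.89 at TP48, and 0.44 and 0.65 at TP60, below the cutoff in all 8 libraries. Repeat 27, which has the most substituted bases, scored 0.04 and 0.51 at TP0, 0.88 and 1.27 at TP36, 0.58 and 0.63 at TP48, and 0.67 and 0.90 at TP60, and passed the cutoff only in replicate 1 of TP36.

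The row on chromosome 6 (chr6:30297452-30297551) goes against its name. It overlaps an annotated 5S_rRNA gene (chr6:30297371-30297466, minus strand) by 15 bp only, and that gene of 96 bases is itself 50 edits away from the most common body. Its scores were 0.12 and 0.17 at TP0, 0.14 and -0.22 at TP36, 0.22 and -0.29 at TP48, and 0.60 and -0.29 at TP60. They stayed near 0, below the cutoff in all 8 libraries, and no fragment in them had multiple matches.

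Position in the array went with little of the spread. Over the 32 repeats with the most common body, the mean score over the 8 libraries had a Pearson correlation of -0.28 with the distance from repeat 1 (Spearman -0.25), as a description, since all of them share libraries and fragments. Of the 10 low repeats 9 lay between repeats 2 and 37 and the other was repeat 50, with none among repeats 4 to 13 or 38 to 49. Repeat 1 (n-R5s100, chr8:126062686-126062804), the first of the array, and repeat 49 (n-R5s149), the last with the most common body, had TP0 scores of 1.27 and 1.78, and of 1.02 and 1.66.

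**Figure D2:**
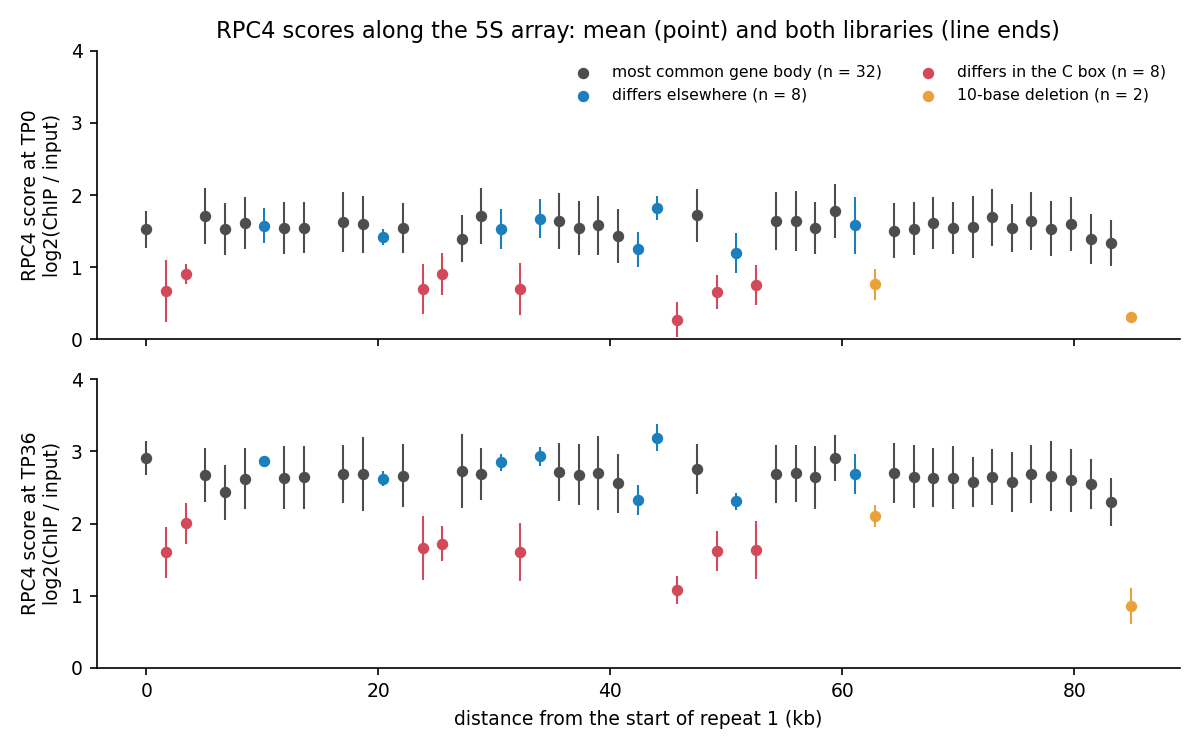
RPC4 score of the 50 array repeats at TP0 and TP36 against the distance from the start of repeat 1 in kb. Points are the mean of the 2 libraries, line ends the libraries themselves, and colours the gene sequence. Repeats with C box differences or the deletion form the low points in both panels, among repeats of the most common body between 1.34 and 1.78 at TP0.

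At TP36 RPC4 on the array was above its TP0 level in both replicates. The median of the 51 rows was 1.18 and 1.90 in the TP0 libraries, 2.20 and 3.04 at TP36, 2.00 and 2.50 at TP48, and 1.81 and 2.33 at TP60. All 50 array repeats had both TP36 libraries above both TP0 libraries, as did 55.9% of all loci of the table. The median difference from TP0 was 1.08 (2.11-fold) at TP36, 0.69 (1.62-fold) at TP48 and 0.54 (1.45-fold) at TP60, beside 0.68, 0.88 and 0.95 over all loci. Within replicates 1 and 2 the TP36 difference was 1.03 and 1.06, so that it was nearly the same size in both. At TP48 it was 0.82 and 0.59 and at TP60 0.64 and 0.44. Both libraries of TP48 were above both of TP0 in 44 of 51 rows (74.6% of all loci), and both of TP60 in 19 of 51 (69.0% of all loci).

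The direction holds for the scores as deposited. The library medians of all loci moved too, by 1.72 at TP36, 1.72 at TP48 and 1.93 at TP60 from TP0. After centring on them the 5S medians were -0.64, -1.02 and -1.40. These shifts were larger than the median change of a locus, which was 0.68, 0.88 and 0.95. At TP36 the 5S median change of 1.08 was above that of a locus. The centred value there thus does not show that 5S fell relative to most loci. The 344 loci above the cutoff in all libraries moved by 0.98, 1.29 and 1.40, and relative to them the 5S medians were 0.10, -0.60 and -0.86. At TP36 the value of 0.10 is the middle of replicates that went opposite ways, with replicate 1 at -0.48 and replicate 2 at 0.60. In both replicates the later 5S medians (TP48, then TP60) were below these loci, at -0.33 and -0.85 and at -0.34 and -1.39. Leaving out 1 library at a time kept the deposited medians positive. They ranged from 0.65 without replicate 2 of TP36 to 1.44 without replicate 2 of TP0 at TP36, from 0.34 without replicate 1 of TP0 to 1.06 without replicate 2 of TP0 at TP48, and from 0.16 to 0.91 without the same libraries at TP60.

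Replicate 2 gave higher 5S scores than replicate 1 at each time point, by a median of 0.71, 0.78, 0.49 and 0.54 from TP0 to TP60. At TP36 the occupied loci as a whole went the other way, with a median of -0.91 for replicate 2 minus replicate 1, while they differed by -0.01 at TP0. The part of this difference in the tests was not tested.

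In the limma fit over all loci, 7 of 51 5S rows were called at TP36 (q under 0.05 and above a cutoff), all of them higher than at TP0 on the deposited scores and lower after centring on all loci. This is 13.7%, against 21.8% of all loci. At TP48 there were 5 (9.80%, against 38.2%), and at TP60 there were 4 (7.84%, against 43.2%), all higher, again lower after that centring. Without adjustment the order was another at TP36, where a p under 0.05 was found at 28 of 51 rows (54.9%, against 30.2% of all loci), but not at TP48 and TP60, with 5 rows (9.80%, against 38.2%) and 4 rows (7.84%, against 43.3%). The 3 comparisons share the TP0 libraries. Between the later time points no 5S row passed in limma, and none had a p under 0.05, with median differences of -0.37 for TP48 minus TP36, -0.50 for TP60 minus TP36 and -0.12 for TP60 minus TP48. The share of all loci called in these was 0%, too.

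The calls rest on single libraries, on the adjustment and on the model. With the replicate number as a block 44 of 51 rows were called higher at TP36 (86.3%, against 25.9% of all loci), so that the 5S share went from below that of all loci to above it, and 9 and 8 rows were called at TP48 and TP60 (17.6% and 15.7%, against 30.5% and 37.2%). In fits of TP0 and 1 later time point alone, 42 of 51 rows were called at TP48 (82.4%, against 66.7%), 6 at TP36 (11.8%, against 23.4%) and 3 at TP60 (5.88%, against 46.3%). With Benjamini-Hochberg in place of q, the calls of all loci at TP36, TP48 and TP60 were 92, 133 and 176. With q they were 141, 247 and 279. The 5S calls with Benjamini-Hochberg were 1, 0 and 1. Without either TP0 replicate they were 0 in each comparison, and they fell to 1 at TP36 without replicate 1 of TP36, to 0 at TP48 without either TP48 replicate and to 0 at TP60 without replicate 2 of TP60, and went up to 10 without replicate 1 of TP60.

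Of the 10 repeats called at least once, 7 differ from the most common body outside the C box and without the deletion. Repeat 26 (chr8:126106747-126106868), with the A box difference, had the highest mean score of the array, 2.79, and was called in all 3 comparisons. It scored 1.66 and 1.99 at TP0, 3.38 and 2.999 at TP36, 2.64 and 3.13 at TP48, and 2.98 and 3.57 at TP60. No later library overlapped TP0, and the differences were 1.37 ± 0.43 (SE, q = 0.0279) at TP36, 1.06 ± 0.43 (q = 0.0388) at TP48 and 1.45 ± 0.43 (q = 0.0114) at TP60 by limma.

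Repeats 7 and 18, with the same A box difference, had nearly the same scores as each other. From 94.9% to 100.0% of these scores came from fragments that match the genome more than once. The 2 repeats may thus not be separate measurements. Repeat 7 was at 1.33 and 1.82 at TP0, 2.80 and 2.93 at TP36, 2.33 and 2.91 at TP48, and 2.10 and 2.90 at TP60. Repeat 18 was at 1.26 and 1.80 at TP0, 2.73 and 2.96 at TP36, 2.32 and 2.96 at TP48, and 2.10 and 2.95 at TP60. They passed at TP36 (limma q = 0.0398 and 0.0408) and at TP48 (q = 0.0436 and 0.0412), and missed the threshold at TP60 (q = 0.0595 and 0.0533). The fourth repeat with it, 30 (n-R5s130), was lower, at 0.92 and 1.47 at TP0 and 2.19 and 2.43 at TP36, and was not called.

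The 3 repeats that share a difference before the control region (12, 20 and 25) were called at TP60. Repeat 12 scored 1.31 and 1.53 at TP0, 2.52 and 2.72 at TP36, 2.21 and 2.17 at TP48, and 2.18 and 2.97 at TP60, and was called also at TP36 (limma q = 0.0408 there and 0.0272 at TP60). Repeat 20 (n-R5s120), the second highest of the array by its mean score of 2.52, was at 1.40 and 1.94 at TP0, 2.80 and 3.06 at TP36, 2.45 and 2.79 at TP48, and 2.29 and 3.38 at TP60. Repeat 25 (n-R5s125) was lower, at 1.00 and 1.49 at TP0 and 1.89 and 2.63 at TP60. In all 3 the replicate 2 library of TP60 was the higher one, as in 50 of the 51 5S rows. The TP60 differences of the 3 were 1.15 ± 0.42, 1.16 ± 0.47 and 1.02 ± 0.43 (SE). Repeat 36 (n-R5s136), with another difference before it, scored 1.18 and 1.98 at TP0, 2.96 and 2.41 at TP36, 2.38 and 2.97 at TP48, and 2.26 and 2.95 at TP60, and passed at TP48 only (difference 1.09 ± 0.47, limma q = 0.0450).

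With the most common body, repeats 1 and 16 were called, both at TP36. Repeat 1 scored 1.27 and 1.78 at TP0, 2.68 and 3.14 at TP36, 1.95 and 2.80 at TP48, and 2.21 and 2.75 at TP60. Repeat 16 (chr8:126089866-126089987) scored 1.07 and 1.73 at TP0, 2.21 and 3.24 at TP36, 1.81 and 2.35 at TP48, and 2.00 and 2.25 at TP60. The TP36 differences were 1.38 ± 0.46 and 1.33 ± 0.48 (SE), with limma q of 0.0340 and 0.0454. The other 30 repeats with this body had TP36 differences of 0.91 or more without being called.

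Of the repeats with low scores, only repeat 37 (chr8:126125469-126125580), with the deletion, was called. It was at 0.55 and 0.97 at TP0, 1.95 and 2.26 at TP36, 1.63 and 1.84 at TP48, and 1.45 and 1.50 at TP60, so that it was below the cutoff at TP0 and above it in every later library. Its TP36 difference of 1.34 ± 0.40 (SE) had the lowest limma q of the 5S rows in that comparison, 0.0229, and it was the call left with Benjamini-Hochberg. The 8 repeats with C box differences also moved up on the deposited scores, by a median of 0.92 at TP36, 0.56 at TP48 and 0.64 at TP60, and none was called. At TP36 all 8 of them passed the cutoff of replicate 1 and 7 of them that of replicate 2. The number of 5S rows occupied in at least 1 library thus went from 40 at TP0 to 49 at TP36. It was 48 at TP48 and at TP60. Over all loci of the table this number rose too, from 404 at TP0 to 486, 479 and 486 at TP36, TP48 and TP60. With both libraries required, the 5S numbers from TP0 to TP60 were 40, 48, 46 and 48. Those of all loci were then 350, 419, 458 and 475. Of the 5S rows, 40 were above the cutoff in all 8 libraries, 9 in some of them and 2 in none.

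By group, the differences from TP0 were most alike at TP36 and least at TP60. The most common body had medians of 1.08, 0.68 and 0.51 at TP36, TP48 and TP60, and the 8 repeats that differ elsewhere 1.23, 1.00 and 1.02. At TP60 both libraries were above both of TP0 in all of these 8, but in 2 of the 32 with the most common body and in 7 of the 8 with C box differences, against 69.0% of all loci. The difference between these groups was not tested.

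How far the repeats are separate measurements depends on the fragments. For each score the table also gives the percent due to fragments that match the genome more than once, which were placed at all their possible positions with weights. The median over the 51 rows of the mean of this percent was 98.8%, against 0.091% over all loci. In 16 rows it was 100% in all 8 libraries. With 5 groups of repeats, 14 rows in all, having the same scores within 0.05 in every library (such as repeats 10, 32, 33 and 45), the 51 rows held 42 different sets of scores. All of these 14 repeats had the most common body.

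By the mean percent over the libraries, the lowest array repeats were 36, 26, 1, 35, 16, 15, 37, 20 and 12, from 48.1% to 88.2%. All of these but 35 and 15 were called at least once. The other called repeats, 18, 7 and 25, were at 100.0%, 97.8% and 96.2%. The percent was under 50 in at least 1 library in repeat 36 (32.9% to 66.7% over the libraries) and in repeat 26 (43.8% to 63.1%), besides the chromosome 6 row, and it was 53.1% to 80.8% in repeat 1, 54.2% to 86.6% in repeat 16 and 68.8% to 89.9% in repeat 37. Repeats 15 and 35, at 52.7% to 87.9% and 51.5% to 88.4%, were called in no comparison, and repeat 18, at 100.0% in all libraries, was called. Over the 50 array repeats the change had a Pearson correlation with the mean percent of -0.40 at TP36, -0.48 at TP48 and -0.63 at TP60 (Spearman -0.28, -0.17 and -0.44). These are descriptions, over repeats that share fragments and libraries. The mean score itself had -0.23 (Spearman 0.11). Whether multiple matching has a part in the calls was not tested.

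**Figure D3:**
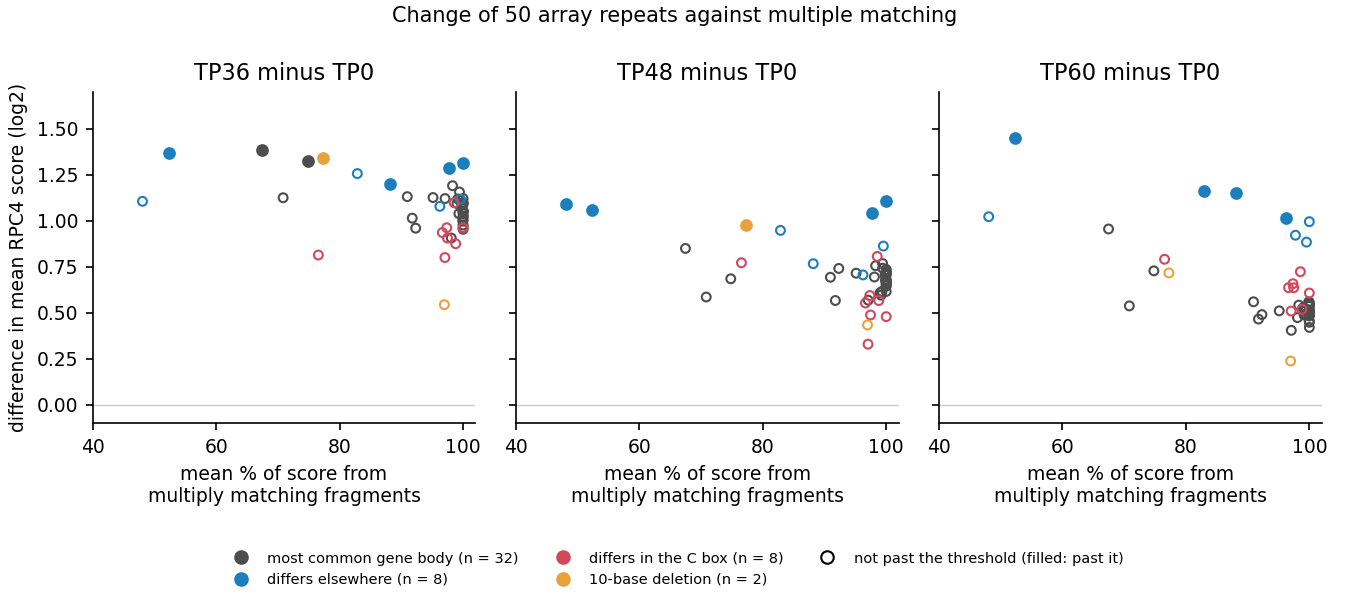
Difference in mean RPC4 score from TP0 (log2, as deposited, which centring on all loci reverses) of the 50 array repeats at TP36, TP48 and TP60, against the mean percent of the score from multiply matching fragments. Filled points passed the threshold of the limma test, open points did not, and colours give the gene sequence. Most repeats of the most common body crowd near 100% with differences near 1.08, 0.68 and 0.51, while repeat 26, near the left of each panel, is at 1.37, 1.06 and 1.45.

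The other repeated family, the 20 Rn4.5s copies, differed from the 5S genes in level and in change. Their median score was 3.51 and 4.61 at TP0 and 3.38 and 3.64 at TP60. The median differences from TP0 were 0.23, -0.20 and -0.48 at TP36, TP48 and TP60. Of the copies 0, 3 and 1 were called (0%, 15% and 5%, against 21.8%, 38.2% and 43.2% of all loci). All of these calls were higher as deposited, against the direction of the family medians at TP48 and TP60. The 433 tRNA genes, which have an internal promoter of another kind, had 103, 185 and 199 called (23.8%, 42.7% and 46%), all higher as deposited. The 298 tRNA genes occupied in at least 1 library had medians of 0.97, 1.30 and 1.36 and the 111 occupied SINEs 0.81, 1.05 and 1.39. The 15 rows of a list of other Pol III RNA genes (Rmrp, Rpph1, Rn7sk, Rn7sl, Rny1, Rny3, Vaultrc5, Bc1, Rnu6 and Rnu6atac) had medians of 0.83, 1.02 and 0.81. Of these rows 2, 5 and 2 were called (13.3%, 33.3% and 13.3%), all higher as deposited. From TP36 to TP60 the medians went down for 5S and Rn4.5s in both replicates. For occupied tRNA genes the higher TP60 median came from replicate 2, which went from 0.62 to 1.92, while replicate 1 went from 1.36 to 0.84. Occupied SINEs likewise went from 0.62 to 1.96 in replicate 2 and from 1.16 to 0.85 in replicate 1. No test of the difference between lists was made.

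**Figure D4:**
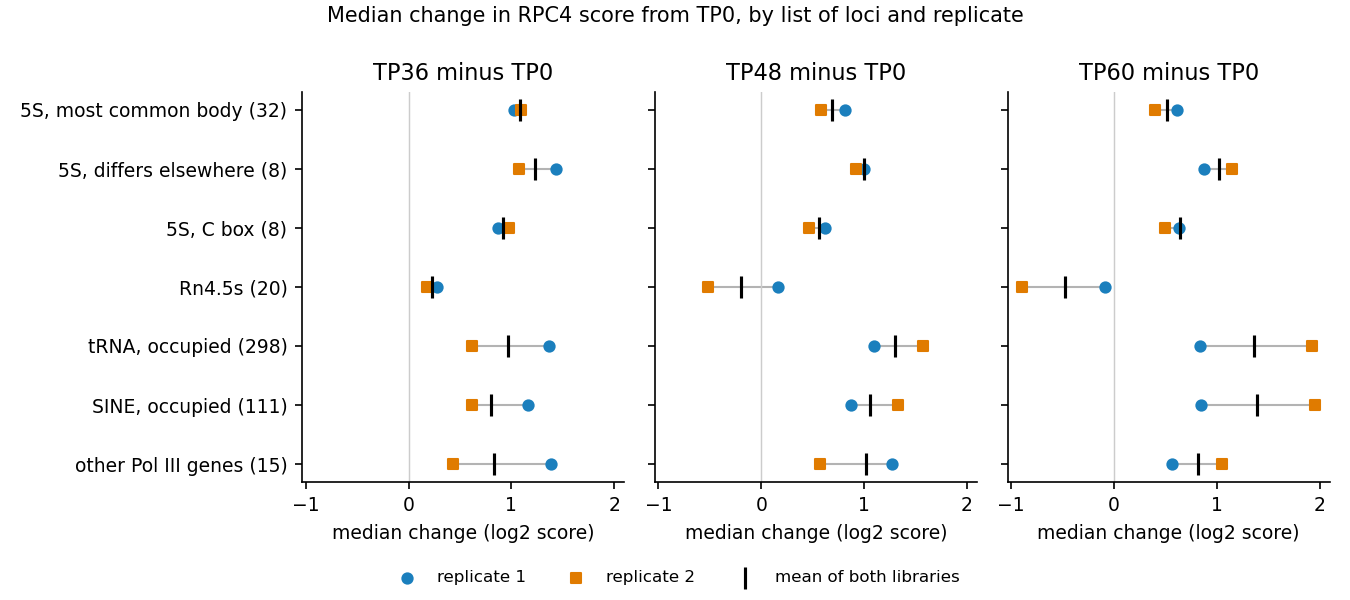
Median change in RPC4 score from TP0 (log2, as deposited, which for 5S centring on all loci reverses) at TP36, TP48 and TP60 for 3 groups of 5S repeats and 4 other lists, with the number of loci in brackets. Circles are replicate 1, squares replicate 2 and bars the mean of both libraries. For the most common 5S body the bar goes from 1.08 to 0.51 across the panels, and for occupied tRNA genes from 0.97 to 1.36, with circles that go down and squares that go up.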

How the data were processed

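The deposited log2 scores were made by the authors, who mapped fragments to NCBI37 (mm9), weighted those with multiple matches (up to 500 per tag), scaled libraries to the median fragment number, and compared ChIP with input counts (pseudocount 16, locus extended by 150 bp). The deposited percent is the part of a score due to multiply matching fragments. Of the per-sample columns, 0 were unmapped. Scores were not scaled further. The test was limma 3.58.1 (R 4.3.3), with 1 mean per time point, empirical Bayes over all loci, two-sided p and Storey q (lambda 0.05 to 0.95). Gene sequences were read from NCBI37 and are not reported here. Annotation came from GENCODE, and tables were made with Python 3.11.15. Members, lists and groups were chosen with earlier results of these data known. By rule, rows were named when called, below all cutoffs, outside the array, first, last, among the 3 highest or lowest means, or under 50% multiple matches. Repeats 2, 3, 14, 15, 19, 29, 30, 31, 35 and 49 were named after their values were seen. Alternatives were another adjustment, a replicate block, a fit of the time points compared, centring, other occupancy rules, a limit on multiple matches, and leaving out each library.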

Additional observations from a re-analysis of the deposited data

How the results depend on the processing

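The 5S counts of calls at TP36, TP48 and TP60 against TP0 (7, 5 and 4) were 1, 0 and 1 with Benjamini-Hochberg. All loci then had 92, 133 and 176 calls. The 5S counts were 6, 42 and 3 in a fit of the time points compared only. They were 0, 0 and 0 over loci with at most 50% multiple matches, which leaves 1 5S row. Leave-one-out counts ranged from 0 to 9, from 0 to 0 and from 0 to 10. Centring on all loci gave 41, 48 and 47 calls, all lower, and centring on the loci above the cutoff in all libraries gave 0, 0 and 7, the 7 lower. The share of all loci called was not counted under either centring or without 1 library. These counts thus cannot be read as particular to 5S. The median changes became -0.64, -1.02 and -1.40 with the first centring and 0.10, -0.60 and -0.86 with the second. Named repeats turned negative with the first, without passing the threshold at TP36 (limma q 0.0502 to 0.0937) or, for repeat 26, at TP60 (q = 0.0532): repeats 1, 7, 12, 16, 18, 26 and 37 to -0.34, -0.43, -0.52, -0.39, -0.41, -0.35 and -0.38 at TP36, repeats 7, 18, 26, 36 and 37 to -0.67, -0.61, -0.66, -0.62 and -0.74 at TP48, and repeats 12, 20, 25 and 26 to -0.78, -0.77, -0.92 and -0.48 at TP60. With the second, repeats 7, 18, 26, 36 and 37 were at -0.25, -0.18, -0.23, -0.20 and -0.32 at TP48, and repeats 12, 20 and 25 at -0.25, -0.24 and -0.39 at TP60, while the 7 repeats at TP36 stayed positive (0.22 to 0.40), as did repeat 26 at TP60 (0.05), none of them called. The cause was not tested.

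With a replicate block the counts were 44, 9 and 8. The labels call the replicates series 1 and 2 and do not say whether a series shares mice, a day or a batch. The deviations of same-numbered libraries correlated from -0.28 to 0.53 over 492 occupied loci and from 0.0997 to 0.62 over the 51 5S rows, where replicate 2 was higher in 48 to 51 rows at each time point. Both highest values, 0.53 and 0.62, were those of TP0 with TP36, the comparison in which the block changed the 5S calls from 7 to 44. The samples were still taken to share only a number in the main fit, from the values over all occupied loci, which went both ways. For TP0 with TP36 the value of 0.53 does not bear this choice out, and the 5S calls at TP36 depend on it. Whether a series is a batch was not tested. The comparisons between later time points gave 0 calls under each alternative run, and dropping the occupancy rule, requiring both libraries, or counting repeats with the same scores once changed no count or median beyond the replicate spread. Depth is unknown, which limits what a low score can show.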
